A study of Mus musculus with 14 samples.

Results

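The genes described here bring amino acids and iron into the cell. They are 9 genes chosen by name: the 8 plasma membrane amino acid transporter subunits Slc7a5, Slc3a2, Slc7a6, Slc7a1, Slc38a1, Slc38a2, Slc1a4 and Slc43a1, and Tfrc, the transferrin receptor. All 9 were found among the 39179 Ensembl gene IDs of the count tables, and all 9 were among the 12630 genes tested. RNA was sequenced from splenic follicular B cells of C57BL/6 mice that had been purified with a commercial kit and kept with 50 ng/ml BAFF for up to 27h. BAFF is a cytokine that mature B cells need to survive. The groups were dbko cells (relb-/-crel-/-) at 6h and 0h, cko cells (crel-/-) at 6h and 0h, and wild-type cells (wt) at 0h, 6h and 27h. Each of the 7 groups held 2 libraries, 14 in all. RelB and c-Rel are subunits of NF-kB, a family of transcription factors activated by BAFF and other signals. No group was cultured without BAFF, so the effect of BAFF and the effect of time in culture cannot be told apart. Nothing in the labels says whether both libraries of a group were made from different mice, so each p-value covers the spread between libraries only, which may be technical. That spread was estimated for each gene over all 14 libraries, so dbko p-values also rest on the wt libraries, which lay closer together.

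A cell that leaves its resting state to grow needs amino acids for protein synthesis and iron for enzymes and DNA synthesis. Large neutral amino acids enter through heterodimers of a light chain (Slc7a5 encodes LAT1, Slc7a6 encodes y+LAT2) and the shared heavy chain CD98, encoded by Slc3a2, which carries the light chain to the surface. Sodium-coupled carriers such as Slc38a1 and Slc38a2 accumulate glutamine and alanine, Slc7a1 takes up arginine and lysine, and the transferrin receptor takes up iron bound to transferrin. Transport of leucine and related amino acids feeds the kinase complex mTORC1, which senses amino acids.

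The sequences before 4 of the genes are shown because the results turn on them: Tfrc, Slc7a1 and Slc7a6 rose in wt cells after 6h and differed between dbko and wt in that rise, and Slc3a2 is the heavy chain. Each is the 250 bases before the first of the gene's RefSeq transcription starts listed in GRCm38.p6, read 5′ to 3′ on the gene's strand, with matches to a simple NF-kB pattern (GGG, any 5 bases, CC) on either strand in capitals, overlapping matches included. The windows lie at chr16:32608646-32608895 (plus strand) for Tfrc, chr5:148399905-148400154 (minus) for Slc7a1, chr8:106168604-106168853 (plus) for Slc7a6 and chr19:8713898-8714147 (minus) for Slc3a2.
Tfrc: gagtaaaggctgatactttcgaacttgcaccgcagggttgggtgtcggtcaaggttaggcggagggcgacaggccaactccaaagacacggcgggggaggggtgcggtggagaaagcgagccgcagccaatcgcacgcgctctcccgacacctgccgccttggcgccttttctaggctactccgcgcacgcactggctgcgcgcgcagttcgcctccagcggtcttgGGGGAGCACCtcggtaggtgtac
Slc7a1: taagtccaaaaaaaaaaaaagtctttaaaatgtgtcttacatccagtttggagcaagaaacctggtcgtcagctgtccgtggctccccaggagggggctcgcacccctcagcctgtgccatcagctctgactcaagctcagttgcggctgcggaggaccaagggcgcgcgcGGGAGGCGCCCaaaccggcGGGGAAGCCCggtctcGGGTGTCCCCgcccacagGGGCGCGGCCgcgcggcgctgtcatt
Slc7a6: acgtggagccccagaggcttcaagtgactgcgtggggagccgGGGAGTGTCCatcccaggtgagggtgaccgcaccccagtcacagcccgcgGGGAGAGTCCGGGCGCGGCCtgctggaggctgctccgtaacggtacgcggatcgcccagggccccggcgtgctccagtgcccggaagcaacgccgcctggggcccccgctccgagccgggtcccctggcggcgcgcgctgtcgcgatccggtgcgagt
Slc3a2: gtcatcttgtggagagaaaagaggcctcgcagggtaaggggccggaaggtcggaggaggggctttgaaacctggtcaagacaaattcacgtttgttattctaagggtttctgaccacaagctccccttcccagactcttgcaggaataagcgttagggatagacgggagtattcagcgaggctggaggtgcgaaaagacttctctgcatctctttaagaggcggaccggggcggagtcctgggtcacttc
In the windows shown, the pattern was found at 1 position before Tfrc, 5 before Slc7a1, 3 before Slc7a6 and 0 before Slc3a2. The second window, before another start, held 3 matches for Tfrc, 0 for Slc7a1 and 2 for Slc7a6. The windows of Tfrc overlap, as do those of Slc7a6. Match GGGGAGCACC of Tfrc and the 2 Slc7a6 matches in the second windows are sites already counted in the first. Genes that did not rise held matches too, 2 before Slc38a2 and 4 before Slc43a1. Slc1a4, which was called higher at 6h in all 3 genotypes, held 2. The windows of Slc3a2 and Slc43a1 lie inside the annotated span of their gene (chr19:8706882-8723369 and chr2:84838850-84863594). Bases before the outer end of these genes were thus not searched. Slc7a5 and Slc38a1, which rose in wt, had no window. The part of the matches in the responses was not tested. Over all members with a window, 8 of 10 windows, overlapping windows included, from 6 of 7 genes, held it, against 45.8% of all 32851 windows of this length. The 4 windows printed are 64.8, 62.4, 74.0 and 53.6% G and C in the order given, and the median over all windows is 52.4%; the part of base composition in the matches was not tested. The E-box CACGTG, bound by MYC and related factors, was found in 1 of the 10 member windows, before Slc43a1, against 6.02% of all windows. TGATGNAA, an amino acid response element, was found in 0 of the 10 against 3.45%, and the cAMP response element TGACGTCA in 0 of the 10 against 1.55%. A match describes letters in a window and is no evidence of binding.

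The 14 libraries held 10497802 to 11888765 gene counts. Rel had 40.0 and 52.3 CPM in dbko and 58.3 and 52.4 CPM in cko at 0h, against 633 and 621 CPM in wt. Relb had 53.0 and 65.6 CPM in dbko at 0h, against 115 and 117 CPM in wt. Reads of Rel were thus scarce in dbko and cko, while dbko kept a lower but measurable level of Relb. CPM stands for the read count of a gene scaled to a common library size. None of the 9 follicular B cell markers measured was at 0 in any library, and their sum was 6305 to 11770.2 CPM in dbko, 6112 to 12187 CPM in cko and 6159.6 to 12748 CPM in wt. The 15 erythroid markers measured summed to 1530 and 765 CPM in dbko at 0h, 86.8 and 90.9 CPM in cko at 0h and 18.7 and 18.8 CPM in wt at 0h. In bulk RNA, fewer cells of a type and less RNA per cell cannot be told apart. Summed markers of T cells ranged over 53.0 to 103 CPM across the 14 libraries, of NK cells over 2.32 to 27.3 CPM, of neutrophils over 0.0799 to 20.6 CPM and of plasma cells over 739 to 2825 CPM.

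After 6h with BAFF, wt cells held more RNA for most of the uptake genes. Slc1a4, Slc7a1, Tfrc, Slc7a6, Slc7a5 and Slc38a1 rose, by 1.97-fold for Slc38a1 to 11.4-fold for Slc1a4, Slc38a2 fell to 0.66 of its 0h level, and Slc3a2 and Slc43a1 did not pass the test. That is 7 of 9 genes called at an adjusted p under 0.05 in edgeR's quasi-likelihood test with Benjamini-Hochberg adjustment, against a background of 46.2% of all genes tested (22.6% higher and 23.5% lower). The median log2 fold change was 1.13 over the 9 genes and 0.00 over all genes. All 7 calls held with any of the 4 wt libraries concerned left out. At 27h, 7 of 9 genes were lower than at 6h: Slc3a2, Slc38a2 and 5 of the 6 genes that had risen. The other riser, Slc1a4, was not called lower (-0.66 ± 0.40, adjusted p = 0.224). The background was 34.1%, of which 18.2% lower. Against 0h 4 were called, Slc1a4 and Slc7a6 higher and Slc3a2 and Slc38a2 lower (background 47.6%, of which 23% higher and 24.6% lower).

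**Figure D1:**
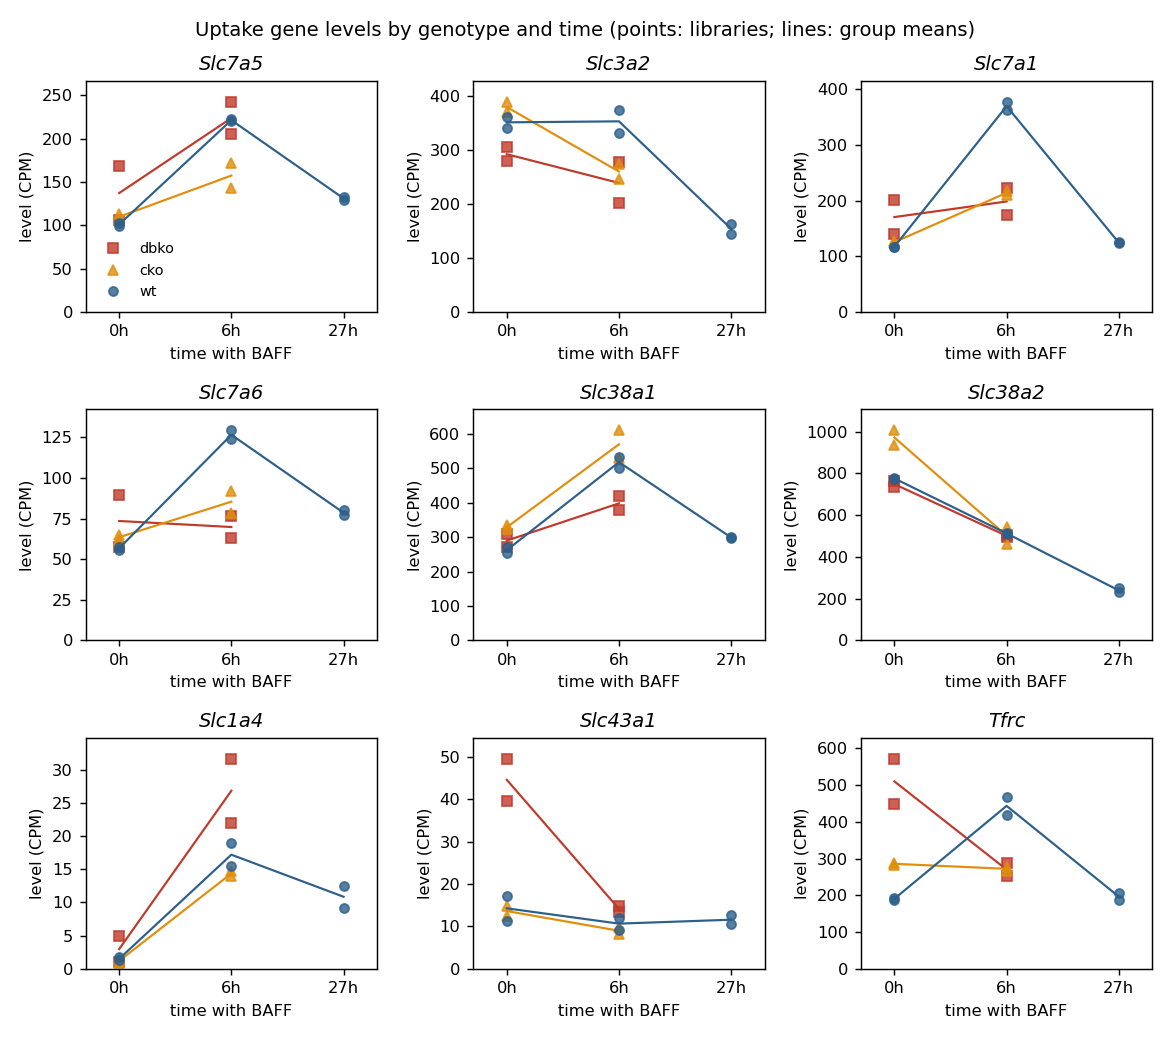
Level in CPM (y axis, from 0) against time with BAFF (x axis, 0h, 6h and 27h) for the 9 uptake genes. Points are libraries, lines join group means, and squares, triangles and circles are dbko, cko and wt. In wt, Slc7a1 and Tfrc peak at 6h and are back near their 0h level at 27h, and in dbko Tfrc and Slc43a1 start high and fall.

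Fewer of the genes were called higher in the knockout cells. In dbko, 6 of 9 genes were called at 6h against 0h (background 39.6%, of which 19.3% higher and 20.3% lower), 3 higher (Slc1a4, Slc7a5 and Slc38a1) and 3 lower (Slc43a1, Tfrc and Slc38a2). In cko, 7 of 9 were called (background 41.9%, of which 21.8% higher and 20.1% lower), 4 higher (Slc1a4, Slc38a1, Slc7a1 and Slc7a5) and 3 lower (Slc38a2, Slc43a1 and Slc3a2). The median log2 fold change of the 9 genes was -0.08 in dbko and 0.43 in cko, and over all genes it was 0.03 and 0.05. Tfrc rose in wt, fell in dbko and was not called in cko.

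**Figure D2:**
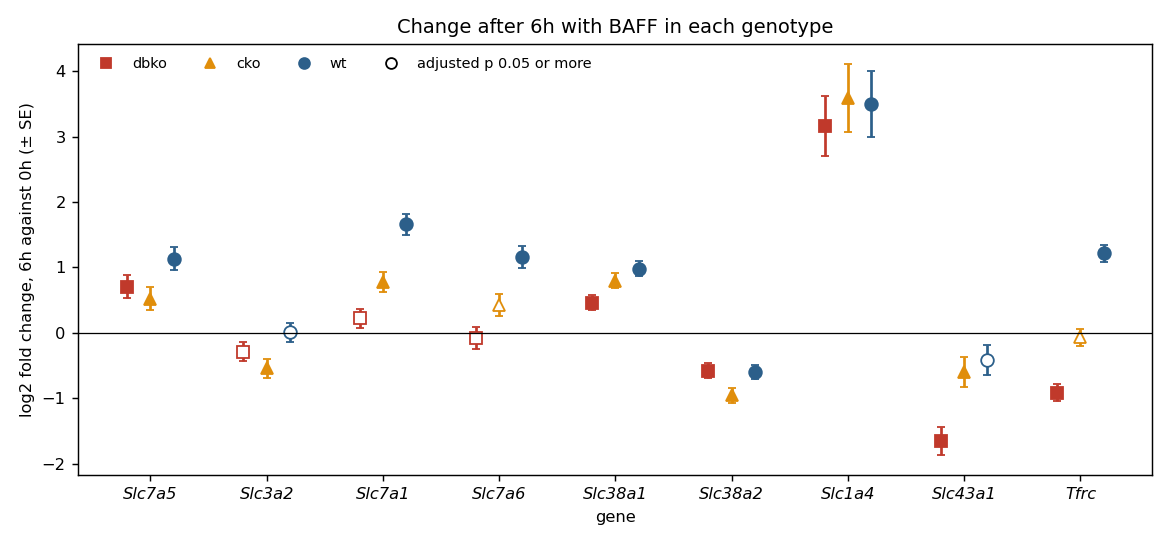
Log2 fold change at 6h against 0h (y axis) with its standard error (bars) for each uptake gene (x axis) in dbko (squares), cko (triangles) and wt (circles). Filled points passed an adjusted p of 0.05. Slc1a4 lies above 3 in all genotypes, and Tfrc lies at -0.92 in dbko, -0.07 in cko and 1.22 in wt.

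Slc7a5 encodes LAT1, the main carrier of leucine and other large neutral amino acids (ENSMUSG00000040010, chr8:121881150-121907694, minus strand, GRCm38). Slc7a5 in dbko had 205 and 242 CPM at 6h, against 168 and 106 CPM at 0h. Slc7a5 in cko had 143 and 172 CPM at 6h, against 113 and 106 CPM at 0h. Slc7a5 in wt had 103 and 98.8 CPM at 0h, then 220.1 and 223 CPM at 6h and lastly 129.6 and 132 CPM at 27h. The 6h libraries lay above the 0h libraries in every genotype, and the dbko 0h replicates lay further apart than those of cko or wt. The log2 fold change at 6h was 0.71 ± 0.17 in dbko (adjusted p = 0.00626), 0.52 ± 0.17 in cko (adjusted p = 0.0297) and 1.13 ± 0.18 in wt (adjusted p = 0.00025). The cko call ended without cko 0h replicate 1 (adjusted p = 0.09), cko 0h replicate 2 (0.154) or cko 6h replicate 2 (0.185), and the dbko call ended in a fit of the compared groups alone (0.126). The difference in response was -0.43 ± 0.25 for dbko minus wt (adjusted p = 0.274) and -0.61 ± 0.25 for cko minus wt (adjusted p = 0.242), so neither passed the test. The cko difference was called with no filter (-0.66, adjusted p = 0.0342) and with the compared groups alone (-0.64, adjusted p = 0.0134). Without dbko 0h replicate 2 the dbko difference was called at -0.72 (adjusted p = 0.0144). Set against 6h, wt Slc7a5 at 27h was down: it fell by 0.76 ± 0.17 on the log2 scale (adjusted p = 0.00566). At 6h, dbko and wt differed by 0.02 ± 0.17 (95% interval -0.36 to 0.39). Between dbko and cko at 6h, Slc7a5 was not called in the fit of all libraries. Dbko was called higher than cko with no filter (0.48, adjusted p = 0.00649) and with DESeq2 (0.50, adjusted p = 0.0477).

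Slc7a6, the y+LAT2 light chain that exchanges cationic for neutral amino acids (ENSMUSG00000031904, chr8:106168857-106198706, plus strand), passed the test at 6h in wt, missed it in dbko and was near the threshold in cko. Slc7a6 in dbko had 63.0 and 76.5 CPM at 6h, against 89.6 and 57.4 CPM at 0h. Slc7a6 in cko had 92.1 and 78.7 CPM at 6h, against 65.0 and 62.0 CPM at 0h. Slc7a6 in wt had 55.9 and 57.5 CPM at 0h, then 129 and 124 CPM at 6h and lastly 77.0 and 80.2 CPM at 27h. The wt 6h libraries stood above all 12 other libraries, and in dbko the times overlapped. The change at 6h was -0.08 ± 0.17 in dbko (adjusted p = 0.758), 0.43 ± 0.17 in cko (adjusted p = 0.0619) and 1.16 ± 0.17 in wt (adjusted p = 0.000179). The cko change was called with no filter (0.38, adjusted p = 0.0343) and with the compared groups alone (0.41, adjusted p = 0.0204). The response in dbko minus wt was -1.23 ± 0.24 (adjusted p = 0.00708), a call that held with any of the 8 libraries left out, and in cko minus wt it was -0.73 ± 0.24 (adjusted p = 0.152). The cko difference was called with no filter (-0.78, adjusted p = 0.00807) and with the compared groups alone (-0.76, adjusted p = 0.0063). Without both dbko replicate 1 libraries the dbko change at 6h turned to 0.40 (adjusted p = 0.0191), while the difference from wt stayed called at -0.76 (adjusted p = 0.00494). At 27h against 0h in wt the difference was 0.47 ± 0.17 (adjusted p = 0.0382), and this call ended without any 1 of the 4 libraries (adjusted p 0.0956 to 0.152). Against 6h, Slc7a6 at 27h was lower by -0.69 ± 0.17 (adjusted p = 0.00822), a call that ended without wt 6h replicate 1 (0.0526) or wt 27h replicate 1 (0.0657).

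Slc3a2, the CD98 heavy chain (ENSMUSG00000010095, chr19:8706882-8723369, minus strand), did not rise with its light chains. Slc3a2 in dbko had 200.4 and 276 CPM at 6h, against 278 and 305 CPM at 0h. Slc3a2 in cko had 245 and 274 CPM at 6h, against 388 and 369.5 CPM at 0h. Slc3a2 in wt had 339.8 and 361 CPM at 0h, then 331 and 373 CPM at 6h and lastly 145 and 162 CPM at 27h. In wt the 6h libraries enclosed the 0h libraries, and the 27h libraries were the lowest of all 14. The wt change was 0.01 ± 0.14 at 6h (95% interval -0.31 to 0.32, adjusted p = 0.973) and -1.19 ± 0.15 at 27h against 0h (adjusted p = 3.76e-05). In cko it fell by 0.55 ± 0.14 at 6h (adjusted p = 0.0091), a call that ended without cko 0h replicate 1 (0.0599) or cko 6h replicate 1 (0.0672). In dbko the change was -0.29 ± 0.14 (adjusted p = 0.129), called without dbko 6h replicate 2 at -0.54 (adjusted p = 0.00928) and with a replicate block within each genotype at -0.31 (adjusted p = 0.0366). Neither response differed from that of wt past the threshold (adjusted p = 0.365 for dbko and 0.201 for cko), although without dbko 6h replicate 2 that of dbko did, at -0.55 (adjusted p = 0.0471), and with the compared groups alone that of cko did, at -0.58 (adjusted p = 0.0201). At 6h, dbko lay below wt by -0.56 ± 0.14 (adjusted p = 0.0134), and this was lost without dbko 6h replicate 1 (0.105), without wt 6h replicate 2 (0.12) and in a fit of the compared groups alone (0.0915).

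The balance of light to heavy chain transcripts moved with time. Per kb of exon, dbko Slc7a5 amounted to 0.975 and 0.835 times Slc3a2 in the 6h libraries, against 0.575 and 0.332 times in the 0h libraries. For cko the ratio was 0.555 and 0.598 in the 6h libraries, against 0.278 and 0.273 in the 0h libraries. Across the wt times it was 0.289 and 0.261 at 0h, then 0.632 and 0.567 at 6h and lastly 0.852 and 0.777 at 27h. The 6h ratios lay above the 0h ratios of the same genotype in all 3 genotypes, and the 27h ratios above those at 6h in wt. At 6h the wt ratio was higher than at 0h with Slc3a2 level and Slc7a5 up. From 6h to 27h both genes fell while the ratio was higher again. The log2 change over that time was -1.20 ± 0.15 for Slc3a2 and -0.76 ± 0.17 for Slc7a5. Adding Slc7a6 gave 1.22 and 1.05 in dbko at 6h, 0.845 and 0.820 in cko at 6h and, in wt, 0.416 and 0.384 at 0h, then 0.934 and 0.824 at 6h and lastly 1.26 and 1.16 at 27h. These are ratios of RNA with no test, and they depend on the annotated exon lengths.

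**Figure D3:**
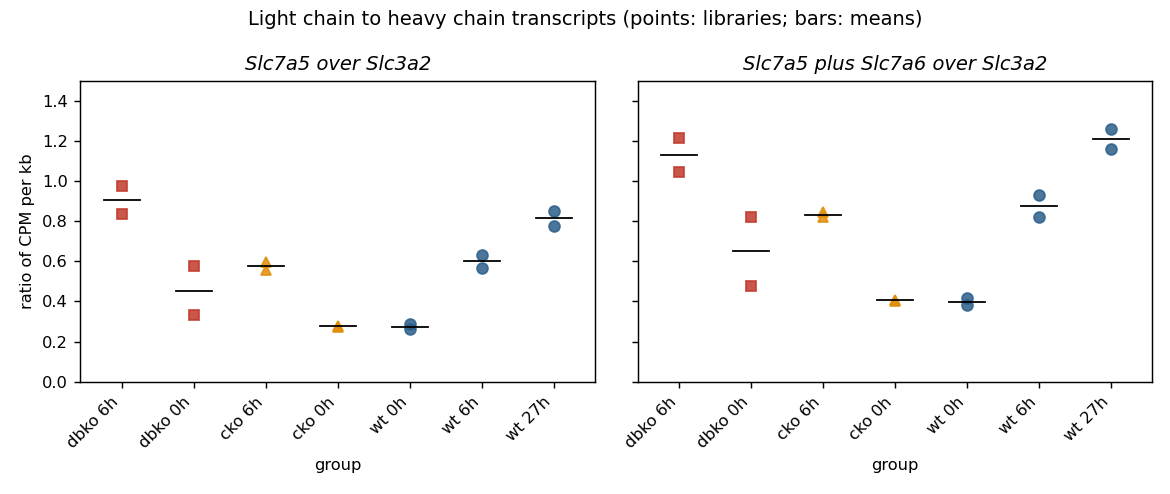
Ratio of CPM per kb of exon (y axis, from 0) for Slc7a5 over Slc3a2 (left) and for Slc7a5 plus Slc7a6 over Slc3a2 (right), by group (x axis). Points are libraries and bars are group means; in each genotype the 6h points lie above the 0h points.

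Slc7a1, the cationic amino acid transporter CAT1 (ENSMUSG00000041313, chr5:148327410-148399904, minus strand), separated wt from both knockouts at 6h. Slc7a1 in dbko had 175 and 222 CPM at 6h, against 200.3 and 141 CPM at 0h. Slc7a1 in cko had 218 and 210.1 CPM at 6h, against 128 and 123 CPM at 0h. Slc7a1 in wt had 117 and 117 CPM at 0h, then 362 and 377 CPM at 6h and lastly 124 and 125 CPM at 27h. The 2 wt 6h libraries stood above all other libraries, whose highest was 222 CPM. The 6h change was 0.22 ± 0.15 in dbko (adjusted p = 0.27), 0.77 ± 0.15 in cko (adjusted p = 0.00147) and 1.66 ± 0.16 in wt (adjusted p = 5.55e-06). The dbko change passed the test without dbko 0h replicate 1 (0.48, adjusted p = 0.0184) and without both dbko replicate 1 libraries (0.65, adjusted p = 0.000245). The response in dbko minus wt was -1.44 ± 0.21 (adjusted p = 0.00171), called with any of the 8 libraries left out and at -1.01 without both dbko replicate 1 libraries (adjusted p = 0.000233). In cko minus wt it was -0.89 ± 0.21 and missed the threshold (adjusted p = 0.0604), but it was called under 5 alternatives: DESeq2 (0.00231), its size factors in edgeR (0.0453), no filter (0.000365), a block within each genotype (0.0484) and the compared groups alone (0.00085). By 27h the wt level had dropped again: against 6h, Slc7a1 fell by 1.57 ± 0.15 (adjusted p = 2.18e-05), and at 27h it differed from 0h by 0.09 ± 0.15 (adjusted p = 0.666).

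Slc38a1 and Slc38a2, paralogous carriers of small neutral amino acids (SNAT1 and SNAT2), moved in opposite directions at 6h. Slc38a1 (ENSMUSG00000023169, chr15:96571418-96642913, minus strand) had 378 and 419 CPM in dbko at 6h, against 271 and 309.5 CPM at 0h. Slc38a1 in cko had 610.5 and 530.1 CPM at 6h, against 334 and 324 CPM at 0h. Slc38a1 in wt had 272 and 253 CPM at 0h, then 534.5 and 502 CPM at 6h and lastly 301 and 297 CPM at 27h. In all genotypes the 6h libraries lay above the 0h libraries, least so in dbko. The log2 fold change at 6h was 0.46 ± 0.12 in dbko (adjusted p = 0.00742), 0.79 ± 0.12 in cko (adjusted p = 0.00018) and 0.98 ± 0.12 in wt (adjusted p = 3.62e-05). The dbko call lay at the threshold without dbko 0h replicate 1 (adjusted p = 0.05) and ended in a fit of the compared groups alone (0.146). The response in dbko minus wt was -0.52 ± 0.16 and just missed the threshold (adjusted p = 0.0511), and it was called under 6 of the alternatives tried, among them DESeq2 (-0.55, adjusted p = 0.00828). At 27h against 6h in wt, Slc38a1 was lower by -0.79 ± 0.12 (adjusted p = 0.000367).

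Slc38a2 (ENSMUSG00000022462, chr15:96687392-96699730, minus strand) fell in every genotype. Slc38a2 in dbko had 504.5 and 496 CPM at 6h, against 732 and 764 CPM at 0h. Slc38a2 in cko had 542 and 459.9 CPM at 6h, against 938 and 1005 CPM at 0h. Slc38a2 in wt had 776 and 775 CPM at 0h, then 514 and 510.0 CPM at 6h and lastly 229.9 and 248.5 CPM at 27h. The times did not overlap in any genotype, and the 3 genotypes stood close together at 6h. The log2 fold change at 6h was -0.58 ± 0.11 in dbko (adjusted p = 0.00141), -0.96 ± 0.11 in cko (adjusted p = 3.87e-05) and -0.60 ± 0.11 in wt (adjusted p = 0.000959), and in dbko it lost the call in a fit of the compared groups alone (0.0853). At 27h it was -1.70 ± 0.12 against 0h (adjusted p = 3.87e-07), and the fall went on from 6h to 27h by -1.10 ± 0.11 (adjusted p = 3.13e-05). The response differed from that in wt by 0.02 ± 0.16 in dbko (95% interval -0.33 to 0.36) and by -0.36 ± 0.16 in cko (adjusted p = 0.292).

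Slc1a4, the carrier ASCT1 of alanine, serine and cysteine (ENSMUSG00000020142, chr11:20302180-20332713, minus strand), showed the largest fold at 6h of the 9 genes and, per kb, the lowest 0h level. Slc1a4 in dbko had 31.6 and 22.0 CPM at 6h, against 4.88 and 1.05 CPM at 0h; the 0h values rest on 52 and 11 reads. Slc1a4 in cko had 14.8 and 14.0 CPM at 6h, against 1.48 and 0.895 CPM at 0h, from 14 and 9 reads at 0h. Slc1a4 in wt had 1.25 and 1.74 CPM at 0h, then 18.9 and 15.5 CPM at 6h and lastly 9.18 and 12.5 CPM at 27h, from 12 and 18 reads at 0h. Levels at 6h lay far above those at 0h in each genotype, and in wt those at 27h lay between. The log2 fold change was 3.17 ± 0.46 in dbko (adjusted p = 0.000258), 3.59 ± 0.53 in cko (adjusted p = 0.000262) and 3.51 ± 0.51 in wt (adjusted p = 0.000209), and each held with any 1 library left out. The responses differed by -0.34 ± 0.69 in dbko minus wt and 0.09 ± 0.75 in cko minus wt (95% intervals -1.84 to 1.16 and -1.56 to 1.73), intervals too wide to show that they were alike. At 27h Slc1a4 was still above 0h, by 2.85 ± 0.51 (adjusted p = 0.000823).

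Slc43a1, the facilitative leucine carrier LAT3 (ENSMUSG00000027075, chr2:84838850-84863594, plus strand), stood out in dbko at 0h. Slc43a1 in dbko had 14.8 and 13.4 CPM at 6h, against 49.5 and 39.7 CPM at 0h. Slc43a1 in cko had 9.85 and 8.09 CPM at 6h, against 14.7 and 12.5 CPM at 0h. Slc43a1 in wt had 17.2 and 11.3 CPM at 0h, then 9.24 and 12.1 CPM at 6h and lastly 10.5 and 12.6 CPM at 27h. The dbko 0h libraries were the highest of all 14, and the wt times overlapped. At 0h, dbko was above wt by 1.65 ± 0.22 (adjusted p = 0.000375) and above cko by 1.71 ± 0.22 (adjusted p = 0.000674), and both calls held with any 1 library left out. At 6h it fell by 1.66 ± 0.22 in dbko (adjusted p = 8.22e-05), against -0.60 ± 0.23 in cko (adjusted p = 0.0491) and -0.42 ± 0.22 in wt (adjusted p = 0.148), which was called without wt 0h replicate 2 at -0.69 (adjusted p = 0.0472). The cko call ended without any 1 of its 4 libraries (adjusted p 0.0665 to 0.231). The response in dbko minus wt was -1.24 ± 0.31 (adjusted p = 0.0207), and it ended without wt 0h replicate 2 (0.0953), wt 6h replicate 2 (0.11) or dbko 0h replicate 1 (0.059), and in a fit of the compared groups alone (0.072).

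Tfrc, the transferrin receptor (ENSMUSG00000022797, chr16:32608920-32632794, plus strand), reversed its direction between genotypes. Tfrc in dbko had 288 and 252 CPM at 6h, against 571 and 449 CPM at 0h. Tfrc in cko had 278 and 266 CPM at 6h, against 283 and 288 CPM at 0h. Tfrc in wt had 187 and 194 CPM at 0h, then 419 and 468.5 CPM at 6h and lastly 186 and 207 CPM at 27h. At 0h the genotypes did not overlap and were ordered dbko, cko, wt from high to low, while at 6h both knockouts lay below wt. The log2 fold change at 6h was -0.92 ± 0.13 in dbko (adjusted p = 0.000157), -0.07 ± 0.13 in cko (adjusted p = 0.691, 95% interval -0.35 to 0.21) and 1.22 ± 0.13 in wt (adjusted p = 1.69e-05). The response in dbko minus wt was -2.14 ± 0.18 (adjusted p = 0.000167), called with any of the 8 libraries left out. In cko minus wt it was -1.29 ± 0.18 (adjusted p = 0.00786), and that call ended without wt 0h replicate 1 (0.0688), wt 0h replicate 2 (0.0575), wt 6h replicate 2 (0.0624), cko 0h replicate 1 (0.0529) or cko 0h replicate 2 (0.0552). Both differences share the wt libraries. In wt, Tfrc fell by 1.17 ± 0.13 between 6h and 27h (adjusted p = 5.34e-05) and at 27h differed from 0h by 0.04 ± 0.13 (adjusted p = 0.805).

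Erythroid precursors make much transferrin receptor, and in mice they also use Slc43a1 to take up leucine. At 0h the sum of their markers was higher in dbko than in wt, as were Tfrc and Slc43a1. In cko at 0h the sum and Tfrc were above wt as well, while Slc43a1 differed from wt by -0.07 ± 0.22 (adjusted p = 0.944). The 15 erythroid markers summed to 266 and 117 CPM in dbko at 6h, against 1530 and 765 CPM at 0h. In cko they summed to 7.39 and 9.23 CPM at 6h, against 86.8 and 90.9 CPM at 0h. Their sum in wt was 18.7 and 18.8 CPM at 0h, then 3.39 and 3.48 CPM at 6h and lastly 6.88 and 7.03 CPM at 27h. All 15 were called higher in dbko than in wt at 0h and at 6h (7.1% and 15.2% of all genes). In cko, 4 were called higher than in wt at 0h (0.918% of all genes) and 0 at 6h (1.58%). In the wt 6h libraries, which had high Tfrc, 5 and 6 of the 15 were at 0, Epor, Epb42 and Rhag among them. In dbko at 0h, replicate 1 had the higher sum and also the higher Tfrc and Slc43a1. The part of erythroid RNA in these differences was not tested. The 16 macrophage and monocyte markers summed to 332 and 113 CPM in dbko at 6h, against 308 and 178 CPM at 0h. In cko their sum was 34.0 and 34.2 CPM at 6h, against 54.5 and 48.4 CPM at 0h. In wt it was 205.5 and 207 CPM at 0h, then 46.3 and 44.8 CPM at 6h and lastly 88.3 and 92.9 CPM at 27h. Of the 15 macrophage and monocyte markers tested, 2 were called higher in dbko than in wt at 0h and 15 at 6h (7.1% and 15.2% of all genes). For the response in dbko minus wt, 9 were called higher (6.9%). In cko against wt, 5 were called lower at 0h (0.578%) and 0 were called at 6h (3.54%).

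**Figure D4:**
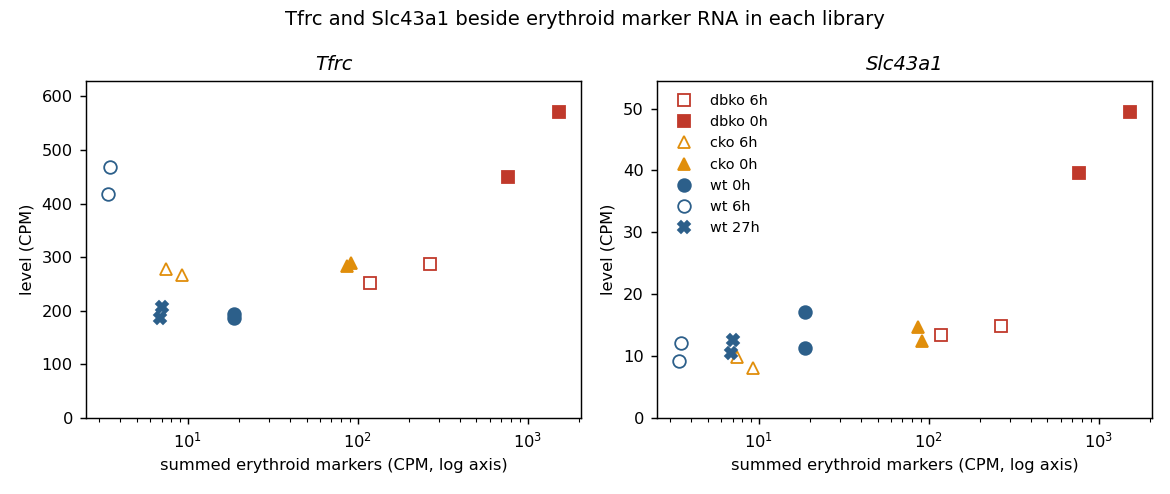
Level of Tfrc (left) and Slc43a1 (right) in CPM (y axis, from 0) against the summed CPM of 15 erythroid markers (x axis, log scale), 1 point per library. The dbko 0h libraries lie at the upper right of both plots, and the wt 6h libraries combine the lowest marker sums, 3.39 and 3.48 CPM, with Tfrc at 419 and 468.5 CPM.

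Before culture, the genes called between either knockout and wt were all higher in the knockout. In dbko against wt at 0h, 3 of 9 were called, all higher (background 11.7%, of which 7.1% higher and 4.55% lower): Tfrc by 1.42 ± 0.13 (adjusted p = 3.29e-05), Slc43a1, and Slc7a1 by 0.54 ± 0.15 (adjusted p = 0.039). The Slc7a1 call ended without dbko 0h replicate 1 (0.26, adjusted p = 0.381), wt 0h replicate 1 (0.196) or wt 0h replicate 2 (0.197), and in a fit of the compared groups alone (0.173). Without dbko 0h replicate 2, dbko lay above wt by 0.73 for Slc7a5, 0.66 for Slc7a6 and 1.69 for Slc1a4. Against cko these differences were 0.61, 0.49 and 2.03. This fit holds 1 dbko 0h library. At 0h, dbko replicate 1 was above replicate 2 for Slc7a5, Slc7a1, Slc7a6, Slc1a4, Slc43a1 and Tfrc, and below it for Slc3a2, Slc38a1 and Slc38a2. In dbko against cko at 0h, 2 of 9 were called (background 9.03%, of which 6.63% higher and 2.39% lower), Slc43a1 and Tfrc, with Tfrc at 0.84 ± 0.13 (adjusted p = 0.00199). In cko against wt at 0h, 1 of 9 was called (background 1.5%, of which 0.918% higher), Tfrc, by 0.58 ± 0.13 (adjusted p = 0.0458). This call ended without any 1 of the 4 libraries, where the difference was 0.56 to 0.61.

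After 6h, dbko lay below wt for 5 of 9 genes (background 26.7%, of which 11.5% lower). Slc7a1 was lower by -0.90 ± 0.15 (adjusted p = 0.00136), Slc7a6 by -0.86 ± 0.17 (adjusted p = 0.00335) and Tfrc by -0.72 ± 0.13 (adjusted p = 0.00209), and these calls held with any 1 of the 4 libraries left out. Slc3a2, given above, and Slc38a1, at -0.38 ± 0.12 (adjusted p = 0.029), were the other called genes. The Slc38a1 call ended without dbko 6h replicate 1 (0.151), wt 6h replicate 1 (0.168) or wt 6h replicate 2 (0.0971), and in a fit of the compared groups alone (0.0793). In cko against wt at 6h, 2 of 9 were called (background 3.54%, of which 1.58% higher and 1.96% lower): Slc7a1 at -0.79 ± 0.15 (adjusted p = 0.0133) and Tfrc at -0.70 ± 0.13 (adjusted p = 0.0111). Without wt 6h replicate 1 their adjusted p was 0.0856 and 0.0509, without wt 6h replicate 2 0.134 and 0.154, and without cko 6h replicate 2 0.11 and 0.0927, so both calls ended in each case. Between dbko and cko at 6h, 1 of 9 was called (background 13.4%, of which 8.77% higher and 4.66% lower), Slc38a1 at -0.52 ± 0.12 (adjusted p = 0.0125), a call that ended without cko 6h replicate 1 (0.0848) or dbko 6h replicate 1 (0.0836) and in a fit of the compared groups alone (0.226). Tfrc differed between them by -0.01 ± 0.13 (95% interval -0.29 to 0.27). For the difference of responses, 4 of 9 genes were called in dbko minus wt (background 13.8%, of which 6.9% higher and 6.94% lower), all 4 lower, and 1 of 9 in cko minus wt (background 1.7%, of which 1.15% lower).

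Per kb of exon, the order of the genes changed with time. In wt at 0h, Slc3a2 at 99.3 CPM per kb and Slc38a2 at 87.7 were the most abundant, followed by Tfrc at 30.8, Slc7a5 at 27.2, Slc38a1 at 15.2, Slc7a6 at 12.4, Slc7a1 at 10.2, Slc43a1 at 2.49 and Slc1a4 at 0.381 (means of 2 libraries). No neighbours in this order overlapped. In wt at 6h, Tfrc at 71.7 and Slc7a5 at 59.7 CPM per kb had passed Slc38a2 at 57.9, and Slc1a4 at 4.38 had passed Slc43a1 at 1.86. At 27h, Slc3a2 led at 43.5 CPM per kb with Slc7a5 next at 35.3, and Slc38a1 and Slc7a6, at 17.4 and 17.2, overlapped. In dbko at 0h, Slc38a2 at 84.6, Slc3a2 at 82.6 and Tfrc at 82.5 CPM per kb overlapped. In dbko at 6h, Slc3a2, Slc7a5 and Slc38a2, at 67.5, 60.4 and 56.6, each overlapped the next. In cko at 6h, Tfrc at 44.0 and Slc7a5 at 42.4 overlapped, as did Slc7a6 at 18.7 and Slc7a1 at 18.6.

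Counts for related gene lists stand here beside the share of all genes called. Of 20 cytosolic aminoacyl-tRNA synthetases, which load amino acids onto tRNA, 14 rose and 1 fell in wt at 6h (22.6% and 23.5% of all genes), with a median log2 fold change of 1.06. Cars rose by 2.28 ± 0.13 (adjusted p = 1.26e-07), Iars by 2.01 ± 0.13 (adjusted p = 2.78e-07) and Mars by 1.92 ± 0.13 (adjusted p = 3.72e-07). In dbko 11 of the 20 rose at 6h (19.3% of all genes) and in cko 13 (21.8%), and 0 fell in either. Against wt at 6h, 0 were higher and 1, Mars, was lower in dbko (15.2% and 11.5% of all genes), and 0 were called in cko (3.54%). Mars was lower in dbko by -0.42 ± 0.12 (adjusted p = 0.0239), a call that ended without dbko 6h replicate 1 (0.111), wt 6h replicate 1 (0.104) or wt 6h replicate 2 (0.115), and in a fit of the compared groups alone (0.0562). In the difference of responses between dbko and wt, 4 of the 20 were called, all lower (6.94% of all genes), Mars at -0.76 ± 0.17 (adjusted p = 0.0141) among them. This difference takes in the 0h levels. At 0h, 7 of the 20 were higher in dbko than in wt and 0 lower (7.1% and 4.55% of all genes). The median log2 difference at 0h was 0.34. Mars at 0h had 104 and 78.3 CPM in dbko, against 70.9 and 73.0 CPM in wt.

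Of 19 tested genes of the ATF4 and amino acid response, which cells use when amino acids run short, 11 rose and 4 fell in wt at 6h (22.6% and 23.5% of all genes). Trib3, a pseudokinase and ATF4 target, had 28.8 and 29.2 CPM in dbko and 22.8 and 23.2 CPM in cko at 6h, against 17.6 and 14.5 CPM in wt. In wt it rose by 2.76 ± 0.22 (adjusted p = 1.37e-06) over 2.29 and 2.42 CPM at 0h. Aldh18a1, an enzyme of proline synthesis, rose by 1.40 ± 0.15 (adjusted p = 1.36e-05), and Sesn2, a leucine sensor that restrains mTORC1, fell by 1.09 ± 0.12 (adjusted p = 1.77e-05). Against wt at 6h, 7 of the 19 were higher and 1 lower in dbko (15.2% and 11.5% of all genes), and 0 were called in cko (3.54%). Trib3 was higher in dbko by 0.85 ± 0.18 (adjusted p = 0.00455), a call that ended without wt 6h replicate 2 (0.072). Of 35 genes of mTORC1 and amino acid sensing, 15 rose and 9 fell in wt at 6h (22.6% and 23.5% of all genes), and Sesn2 belongs to this list too. Against wt at 6h, 8 of the 35 were higher and 3 lower in dbko, a share near the 26.7% of all genes called. In cko against wt at 6h, 0 of the 35 were called (3.54% of all genes). Rraga, a GTPase that brings mTORC1 to the lysosome, fell by 1.52 ± 0.12 (adjusted p = 1.35e-06), and the sestrin gene Sesn3 fell by 1.64 ± 0.17 (adjusted p = 1.08e-05).

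Of 19 other amino acid transporters tested, 6 rose and 2 fell in wt at 6h, a share near the 46.2% of all genes called, with a median log2 fold change of 0.12. Slc38a7, a lysosomal glutamine exporter, rose by 0.82 ± 0.12 (adjusted p = 0.000143), and Slc15a4, a lysosomal histidine and peptide carrier, fell by 0.69 ± 0.11 (adjusted p = 0.00026). Slc7a3, a paralog of Slc7a1, rose by 2.38 ± 0.49 (adjusted p = 0.00162) but reached only 3.11 and 2.21 CPM. In dbko against wt at 6h, 9 of the 19 were higher and 2 lower (15.2% and 11.5% of all genes), and in cko against wt 0 were called (3.54%). Of 24 iron handling genes, 4 rose and 8 fell in wt at 6h, also near the 46.2% of all genes called. Slc39a14, a carrier of zinc and iron not bound to transferrin, had 19.3 and 21.7 CPM in dbko at 6h, against 39.5 and 36.5 CPM in wt, where it rose by 1.88 ± 0.14 (adjusted p = 9.5e-07). Its response differed between dbko and wt by -1.37 ± 0.19 (adjusted p = 0.00128). Hfe, a partner of the transferrin receptor, fell by 3.21 ± 0.59 in wt (adjusted p = 0.00075) over 2.92 and 3.78 CPM at 0h. In dbko against wt at 6h, 12 of the 24 were higher and 2 lower (15.2% and 11.5% of all genes). In cko against wt at 6h, 0 were called (3.54% of all genes). The erythroid and macrophage marker sums given above stand beside the dbko counts, and their part was not tested.

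Of 10 tested genes of MYC and its partners, 1 rose and 5 fell in wt at 6h (22.6% and 23.5% of all genes), and against wt at 6h 3 were higher and 3 lower in dbko (15.2% and 11.5%). Myc, a driver of growth genes, had 104 and 257 CPM in dbko and 179 and 232 CPM in cko at 6h, against 480.1 and 586 CPM in wt. The groups did not overlap between either knockout and wt. At 0h Myc had 421 and 446 CPM in dbko and 778 and 783 CPM in cko, against 688 and 715 CPM in wt. At 6h Myc was lower than in wt by -1.56 ± 0.31 in dbko (adjusted p = 0.00485) and by -1.37 ± 0.31 in cko (adjusted p = 0.0371). The cko call ended without any 1 of the 4 libraries (adjusted p 0.126 to 0.269), and the dbko call ended in a fit of the compared groups alone (0.076). In wt itself Myc changed by -0.40 ± 0.30 at 6h (adjusted p = 0.312) and by -1.98 ± 0.32 at 27h (adjusted p = 0.000472). The 6h change was called with no filter (0.0282) and with the compared groups alone (0.000596). Mxd4, a MYC antagonist, was the other gene called in cko against wt at 6h, at 0.85 ± 0.20 (adjusted p = 0.0358), and it lost the call without any 1 of the 4 libraries (adjusted p 0.0662 to 0.284). Mxi1, another antagonist, rose by 2.01 ± 0.26 in wt at 6h (adjusted p = 0.000104), and Mxd4 and Mxd1 changed by -1.61 ± 0.20 (adjusted p = 5.52e-05) and -1.33 ± 0.19 (adjusted p = 0.000143).

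Slc1a5, a relative of Slc1a4 that carries glutamine, was not among the 9 genes and was singled out after its values were seen. Slc1a5 in dbko had 92.7 and 95.4 CPM at 6h, against 65.6 and 57.4 CPM at 0h. Slc1a5 in cko had 336 and 247 CPM at 6h, against 277 and 234.5 CPM at 0h. Slc1a5 in wt had 249 and 265 CPM at 0h, then 381 and 359 CPM at 6h and lastly 365 and 419.9 CPM at 27h. The 4 dbko libraries lay below all 10 others. Slc1a5 was lower in dbko than in wt by -2.06 ± 0.16 at 0h (adjusted p = 7e-06) and by -1.98 ± 0.15 at 6h (adjusted p = 7.23e-06), while cko differed from wt by -0.01 ± 0.15 at 0h (adjusted p = 0.997). It lies at chr7:16781340-16798274 (plus strand, GRCm38), 2.81 Mb from Relb.

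By likeness of the 7 group means of log2 CPM, over the 8776 genes whose mean log2 CPM reached 3, the genes closest to Slc7a5 were Abcc5, Lrrc45 and Cd2bp2, with Pearson's r of 0.976, 0.971 and 0.970. Those closest to Tfrc were Apex1, Fmr1 and Aptx, with r of 0.982, 0.949 and 0.948. These r are descriptions over 7 means that share libraries and carry no p.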

How the data were processed

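The 14 files hold read counts per Ensembl gene as deposited by the authors. The submitters' processing notes name CASAVA 1.8.2, without its role. Not given in the sources used here: how reads were aligned, counted by gene and by strand, and against which build and annotation. Per the labels' protocols, column-purified RNA was primed with poly-dT for cDNA and sequenced as Illumina libraries, with replicate 1 of every group on lane 7 and replicate 2 on lane 8. The tallies of reads outside genes were left out of library sizes: reads with no feature were 5.21 to 11.46% of each file, reads not uniquely placed 38.8 to 49.9% and ambiguous reads 0.41 to 0.49%. There were 0 columns of other samples.

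Symbols and positions came from GENCODE M21 on GRCm38, in which 37607 of 39179 IDs had a symbol, and the promoter sequences, found for 7 of the 9 genes, from RefSeq on GRCm38.p6. Genes were filtered by group with filterByExpr (12630 kept), scaled by TMM and fitted with edgeR 4.0.16 (limma 3.58.1, R 4.3.3) by the robust quasi-likelihood method, with 1 mean per group over all 14 libraries (7 residual degrees of freedom, common biological coefficient of variation 0.144). All 13 comparisons used two-sided tests with Benjamini-Hochberg adjustment over the genes tested and a threshold of 0.05. Values after ± are standard errors of log2 fold changes, and changes are log2 unless a fold is stated. The procedure was tested on simulated counts. Libraries of a group differed by more than sampling noise, so none was counted as a repeat. Chi-square per gene was 2.84 to 4.76 in wt, 3.92 and 22.0 in cko and 30.9 and 35.5 in dbko. Because all groups share the estimate of spread, p-values and shares called in dbko comparisons also draw on the closer wt libraries.

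The members and lists were chosen with earlier results of these data known. Named genes are the 9 members, Rel and Relb, from each list the 3 genes with the smallest adjusted p in wt at 6h and 2 in cko against wt at 6h, of which some are given in the text, and the 3 genes closest to Slc7a5 and to Tfrc; Myc and Trib3 fall under these rules, and Slc1a5 was chosen after its values were seen. Alternatives were DESeq2 1.42.0, its size factors in edgeR, no filter, a replicate block, a block within each genotype, a fit of the compared groups alone, each library left out, and both dbko replicate 1 libraries left out.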

Additional observations from a re-analysis of the deposited data

Results flagged for a closer look

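Each of the 5 results here is a difference between genotypes in the change at 6h against 0h, tested as such with edgeR's quasi-likelihood test and past the adjusted threshold. For Tfrc the dbko response minus the wt response was -2.14 on the log2 scale and the cko response minus the wt response was -1.29. Dbko minus wt was -1.44 for Slc7a1, -1.23 for Slc7a6 and -1.24 for Slc43a1. In dbko, Tfrc and Slc43a1 fell at 6h over high 0h levels, whereas Slc7a1 and Slc7a6 did not pass the test in either direction. All 5 share the wt libraries.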

How the results depend on the processing

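In fits that kept 2 libraries in every group, counts of the 9 genes called moved by over 1.5 times as follows. With the compared groups fitted alone they were 3 for dbko 6h against 0h (6 in the fit of all libraries), 3 for cko against wt at 0h (1), 3 for dbko against wt at 6h (5), 0 for dbko against cko at 6h (1) and 5 for the cko minus wt response (1). Calls over all genes moved the same way. In the same order they were 1323 (5004 in the fit of all libraries), 2660 (189), 1075 (3370), 190 (1697) and 1292 (215). With no filter on low counts they were 5 for dbko against wt at 0h (3), 5 for dbko against cko at 0h (2), 5 for cko against wt at 6h (2), 4 for dbko against cko at 6h (1) and 4 for the cko minus wt response (1). Calls over all genes rose too, with more genes tested. In the same order they were 2361 (1472), 2124 (1140), 1030 (447), 2540 (1697) and 654 (215). DESeq2 gave 2 for cko against wt at 0h, 2 for dbko against cko at 6h and 2 for the cko minus wt response, and its size factors in edgeR gave 2 for that response. Over all genes, DESeq2 gave 385 (189), 1780 (1697) and 497 (215) calls in these comparisons, and its size factors gave 227 (215) for the response. The replicate block changed no count of the 9 genes called, and a replicate block within each genotype gave 4 for dbko against cko at 0h, 3 for dbko against cko at 6h and 2 for the cko minus wt response. With the block within each genotype, calls over all genes were 2211 (1140), 2700 (1697) and 588 (215) in the same order. Across all groups the numbers were not taken as pairs: of 21 pairs of groups, 4 had a correlation of same-numbered deviations over 0.1, with a range of -0.17 to 0.48. The 0.48 is that of dbko 6h with dbko 0h, so within dbko same-numbered libraries deviated together, and replicate 1 had the higher erythroid and macrophage marker sums at both times. Without both dbko replicate 1 libraries, the dbko change of Slc7a6 at 6h turned to 0.404 (-0.08 with all libraries). In that fit, which holds 1 library in each dbko group, dbko lay above cko at 6h by 0.613 for Slc7a5 and 0.609 for Slc1a4, while Slc38a1 stayed below cko. The cause of these shifts was not tested.

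With 1 library left out in turn, the counts were 7 to 8 for wt 6h against 0h, 4 to 5 for cko 6h against 0h, 0 for cko against wt at 0h, 2 to 6 for dbko against wt at 0h, 2 to 7 for dbko against cko at 0h, 0 to 2 for cko against wt at 6h, 3 to 5 for dbko against wt at 6h, 0 to 1 for dbko against cko at 6h and 0 to 1 for the cko minus wt response. Over single genes, 1178 values under alternatives kept direction and side of the threshold, 52 lost the call, 65 gained it and 1 turned. Slc1a4 at 0h rests on as few as 9 reads in a library, and its differences between genotypes are the least precise of the 9.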
